A study of Homo sapiens with 60 samples.

Results

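The transcripts described here are those of SLC2A1, the glucose transporter GLUT1, and of 9 enzymes that carry glucose to lactate: HK2, GPI, PFKP, ALDOA, PGK1, PGAM1, ENO1, PKM and LDHA. They were taken by gene symbol as a list of 10 genes, out of 60675 genes in the deposited table, of which 16517 had enough counts for a test. All 10 were tested.

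Glycolysis splits a glucose molecule into pyruvate in the cytosol and yields ATP without oxygen. Glucose enters through transporters of the GLUT family, is trapped by phosphorylation, is split by aldolase and is then oxidised and dephosphorylated to pyruvate, which lactate dehydrogenase can reduce to lactate. The normal liver uses glucokinase and GLUT2, while hepatoma cells mostly use HK2, GLUT1 and the PKM and ALDOA forms. Hypoxia-inducible factors and MYC are known to raise many of these genes, and insulin signalling through phosphoinositide 3-kinase raises several of them.

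HepG2, a cell line from a human hepatocellular carcinoma, was treated for 24 h and profiled by RNA-seq, 3 libraries for each of 20 groups. The positive control was 10 µM wortmannin, which blocks phosphoinositide 3-kinases. Water extracts of Schisandrae Fructus, Aucklandiae Radix, Zizyphi Semen, Longan Arillus and Liriopis seu Ophiopogonis Tuber were given at a low, a medium and a high dose of 20, 100 and 500 µg/mL, and that of Polygalae Radix at 18, 90 and 450 µg/mL. The vehicle was DMSO, which the sample labels give as 0.1% and the series' design text as 2%. All groups are the same cell line, and whether replicates were separate cultures is not stated. The sample codes form 5 sets, of unstated meaning. Vehicle and wortmannin are each alone in a set, and Liriopis with Schisandrae, Longan with Zizyphi, and Polygalae with Aucklandiae share 1 set each. Set and treatment therefore cannot be told apart in comparisons with the vehicle, while all doses of an extract lie in the same set.

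Libraries held 20.21 to 36.41 M counts, and the 10 genes together averaged 5309 to 8517 CPM (counts scaled to library size and composition) in the group means. Markers of hepatocytes summed to between 38501 and 52738 CPM in every library, with ALB, AFP and APOB all expressed, against at most 2.99 CPM for leukocyte, 5.52 CPM for endothelial and 23.1 CPM for fibroblast and stellate cell markers. These marker sums were scaled to total counts alone. PTPRC, which marks leukocytes in general, and CD3E, which marks T cells, were at 0 in all 60 libraries. Vehicle replicate 1 stood apart from the other vehicle libraries: its log2 deviations fell by 0.118 for each 10 percentage points of gene GC content, against slopes of 0.0111 and 0.0176 in replicates 2 and 3, and mitochondrial RNA took 19.97% of its counts, against 16.47% and 16.57%. Liriopis low replicate 1, Schisandrae low replicate 2 and Aucklandiae medium replicate 3 had slopes of -0.168, -0.079 and -0.0748. In mitochondrial share, Aucklandiae medium replicate 1 (20.24%), Aucklandiae low replicate 1 (17.98%) and Zizyphi low replicate 2 (18.62%) also stood apart from the other libraries of their groups (11.64% and 13.04%, 11.01% and 11.8%, and 12.07% and 13.37%). In bulk samples, a change in the number of expressing cells and a change in RNA per cell cannot be told apart.

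Promoter sequences of 4 members are shown because these genes span the range from several copies to no copy of the core of the hypoxia response element, ACGTG, which was sought on both strands. RefSeq (GRCh38.p14) gave 17 windows, each from 250 bases before to 50 bases after a start site, for the 10 genes. Capitals mark ACGTG or its reverse complement CACGT, and adjoining capitals are overlapping matches. The windows are LDHA at chr11:18394313-18394612 (plus strand), PGK1 at chrX:78103998-78104297 (plus strand), the second listed window of HK2 at chr2:74834920-74835219 (plus strand) and SLC2A1 at chr1:42958819-42959118 (minus strand), each printed 5′ to 3′ along the gene's own strand.
LDHA: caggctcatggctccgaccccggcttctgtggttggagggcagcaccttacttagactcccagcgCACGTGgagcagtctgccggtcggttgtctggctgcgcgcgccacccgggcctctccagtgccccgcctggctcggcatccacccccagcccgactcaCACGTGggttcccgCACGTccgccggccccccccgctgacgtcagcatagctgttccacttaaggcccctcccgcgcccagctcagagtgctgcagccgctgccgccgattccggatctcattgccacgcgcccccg
PGK1: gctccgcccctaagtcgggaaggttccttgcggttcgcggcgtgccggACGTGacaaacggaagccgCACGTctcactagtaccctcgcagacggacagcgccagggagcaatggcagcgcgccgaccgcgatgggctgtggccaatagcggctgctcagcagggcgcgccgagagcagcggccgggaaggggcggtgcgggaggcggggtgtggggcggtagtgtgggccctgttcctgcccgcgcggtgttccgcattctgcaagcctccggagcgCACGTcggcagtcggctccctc
HK2: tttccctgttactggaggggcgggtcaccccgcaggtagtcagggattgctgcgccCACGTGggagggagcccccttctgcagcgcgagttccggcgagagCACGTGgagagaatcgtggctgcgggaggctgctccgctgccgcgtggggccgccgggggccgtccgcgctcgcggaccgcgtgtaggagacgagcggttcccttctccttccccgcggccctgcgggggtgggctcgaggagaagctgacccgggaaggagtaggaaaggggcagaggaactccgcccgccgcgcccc
SLC2A1: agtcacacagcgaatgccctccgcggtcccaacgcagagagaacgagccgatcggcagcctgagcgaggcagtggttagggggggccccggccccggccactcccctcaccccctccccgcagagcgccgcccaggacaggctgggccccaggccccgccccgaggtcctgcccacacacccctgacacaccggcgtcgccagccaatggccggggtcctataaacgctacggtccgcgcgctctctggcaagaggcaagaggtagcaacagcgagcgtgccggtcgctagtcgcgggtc
The LDHA window shown held 5 matches, that of PGK1 held 3, that of HK2 held 4 and that of SLC2A1 held 0. Each CACGTG was counted as 2 overlapping matches. The windows of LDHA and HK2 that are not shown held 0 and 2. ACGTG occurred in 9 of the 17 windows and in 6 of the 10 genes, against 21.4% of all 35116 windows and 24.9% of all genes with a window. GCGTG, the other core form, occurred in 9 of 17 windows, against 36.5% of all windows, and the E-box CACGTG, which contains ACGTG, in 3 of 17, against 7.26%. A match in these letters is a description of the window, and windows without a match say only that these letters are not in these bases.

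Per kilobase of transcript (GENCODE 29 coding transcripts), ALDOA and ENO1 were the most abundant of the 10 transcripts and PFKP the least. Averaged over the 20 groups, ALDOA, the aldolase of muscle and proliferating cells, had 899 CPM per kb and ENO1, the ubiquitous enolase, 818 CPM per kb. LDHA had 459, PKM, the pyruvate kinase of most non-hepatic tissues, 392, and SLC2A1 340 CPM per kb. PGAM1, phosphoglycerate mutase, had 192, GPI, glucose-6-phosphate isomerase, 111, and PGK1, phosphoglycerate kinase, 66.4 CPM per kb. HK2, the hexokinase of tumour cells, stood at 23.6 and PFKP, the platelet form of phosphofructokinase, at 1.32 CPM per kb. The liver form PFKL had 128 CPM per kb and HK1 0.308 CPM per kb, both chosen after their values were seen.

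Across the 20 groups the range was widest for HK2 and narrowest for GPI. The ratio of the highest to the lowest group mean was 2.22 for HK2, 1.93 for SLC2A1, 1.78 for PFKP, 1.76 for PKM and LDHA, 1.65 for ALDOA, 1.63 for ENO1, 1.47 for PGAM1, 1.44 for PGK1 and 1.4 for GPI. High-dose Schisandrae had the highest group mean in 9 of the 10 genes, and high-dose Aucklandiae in ENO1 (1821 CPM, against 1811 CPM in high-dose Schisandrae). The lowest mean was in wortmannin for 7 genes, in the vehicle for GPI, in high-dose Polygalae for SLC2A1 and in low-dose Zizyphi for PFKP. When groups were ranked within each gene, 169 of the 190 pairs of neighbours in these orders had overlapping libraries. These orders were made for the 10 genes alone, and no share over all tested genes was computed for highest, lowest or non-overlapping groups. Of the 21 steps without overlap, 9 lay at the ends of the orders: high-dose Schisandrae stood above the next group without overlap for SLC2A1, HK2, PKM and LDHA, and wortmannin below the next group without overlap for HK2, PGAM1, ENO1, PKM and LDHA.

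**Figure D1:**
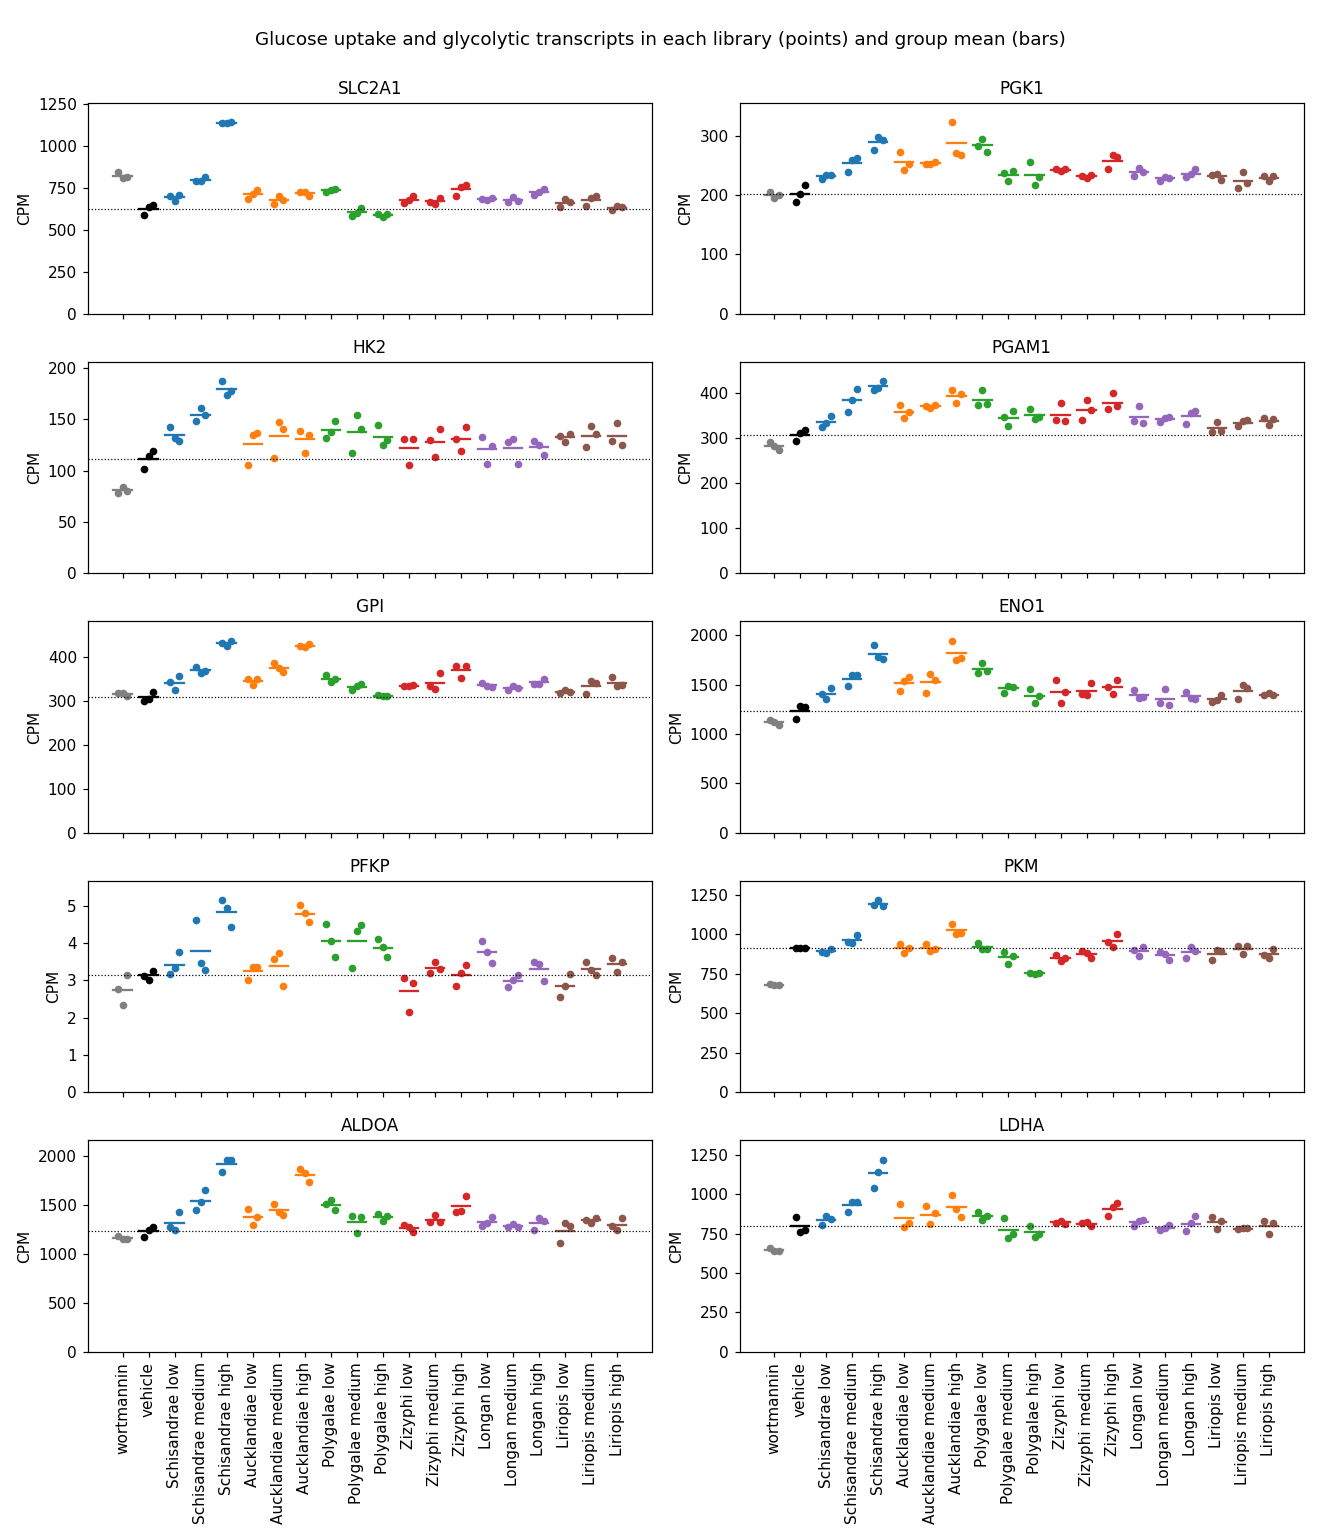
CPM (vertical axes, from 0) of each of the 10 genes in every library of the 20 groups, with low, medium and high dose of each extract in that order. Points are libraries, bars are means of 3 libraries and the dotted line is the vehicle mean, and high-dose Schisandrae holds the highest mean in 9 panels.

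High-dose Schisandrae was compared with the low dose of the same extract first, within a single code set. All 10 genes rose, against 5.18% of all tested genes that rose in this comparison (edgeR quasi-likelihood test, Benjamini-Hochberg adjusted p under 0.05), with a median log2 fold change of 0.421 for the 10 and -0.00546 for all tested genes. SLC2A1, which carries glucose across the plasma membrane, was the most changed, at 1.64-fold, and PGAM1 the least, at 1.24-fold. The genes that rose cover uptake, trapping, the steps before and after aldolase, and the lactate step.

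For SLC2A1 (ENSG00000117394, chromosome 1, 42925375 to 42959176, minus strand, GRCh38), the 3 low-dose Schisandrae libraries had 702, 675 and 707 CPM, the medium-dose libraries 791, 791 and 819 CPM and the high-dose libraries 1137, 1140 and 1145 CPM. No library of a lower dose reached the level of a higher dose. The log2 fold change of high over low dose was 0.72 ± 0.04 (SE, edgeR adjusted p = 9.9e-19).

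HK2 (ENSG00000159399, chromosome 2, 74833981 to 74893359), which phosphorylates glucose on entry, had 187, 174 and 178 CPM at the high dose of Schisandrae, against 142, 132 and 129 CPM at the low dose. The groups did not overlap, and the log2 fold change was 0.42 ± 0.1 (SE, edgeR adjusted p = 0.0039). An opposite-strand RNA, HK2-DT, overlaps its exons and held counts equal to 2.16% of those of HK2. The strand setting of the counting is not given in the sources used here, so reads of the pair may be mixed.

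GPI (ENSG00000105220, chromosome 19, 34359480 to 34402413), which converts glucose 6-phosphate to fructose 6-phosphate, had 431, 423 and 436 CPM at the high dose and 342, 324 and 355 CPM at the low dose of Schisandrae. PFKP (ENSG00000067057, chromosome 10, 3066333 to 3137712), a form of the committed step, had 5.15, 4.93 and 4.44 CPM at the high dose and 3.18, 3.32 and 3.76 CPM at the low dose. ALDOA (ENSG00000149925, chromosome 16, 30064164 to 30070457), which splits fructose 1,6-bisphosphate, had 1835, 1954 and 1961 CPM at the high dose and 1267, 1242 and 1420 CPM at the low dose. In these 3 genes of the upper pathway every high-dose library exceeded every low-dose library. Their log2 fold changes were 0.34 ± 0.04 for GPI, 0.5 ± 0.12 for PFKP and 0.55 ± 0.06 for ALDOA (SE, edgeR adjusted p = 2.4e-09, 0.0038 and 4.4e-10).

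The lower pathway rose with high-dose Schisandrae as well. PGK1 (ENSG00000102144, chromosome X, 77910739 to 78129296), the first ATP-yielding step, had 276, 298 and 293 CPM at the high dose and 227, 233 and 234 CPM at the low dose. PGAM1 (ENSG00000171314, chromosome 10, 97426160 to 97433441), which moves the phosphate group, had 406, 410 and 425 CPM at the high dose and 323, 333 and 349 CPM at the low dose. ENO1 (ENSG00000074800, chromosome 1, 8861000 to 8879250, minus strand), which makes phosphoenolpyruvate, had 1896, 1781 and 1756 CPM at the high dose and 1408, 1351 and 1468 CPM at the low dose. None of these 3 genes had overlapping libraries between the 2 doses. Log2 fold changes were 0.32 ± 0.06 for PGK1, 0.31 ± 0.05 for PGAM1 and 0.36 ± 0.06 for ENO1 (SE, edgeR adjusted p = 4.4e-05, 2.3e-05 and 4.4e-06). The annotated span of PGK1 overlaps exons of ATP7A on the same strand, whose counts equalled 3.82% of those of PGK1.

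PKM (ENSG00000067225, chromosome 15, 72199029 to 72231822, minus strand), whose product makes pyruvate and ATP, had 1188, 1218 and 1183 CPM at the high dose of Schisandrae, against 888, 881 and 910 CPM at the low dose. LDHA (ENSG00000134333, chromosome 11, 18394388 to 18408425), which reduces pyruvate to lactate, had 1042, 1143 and 1222 CPM at the high dose, against 805, 864 and 841 CPM at the low dose. The groups did not overlap in either gene. The log2 fold changes were 0.42 ± 0.04 for PKM and 0.44 ± 0.06 for LDHA (SE, edgeR adjusted p = 1.5e-11 and 5.9e-07). All 10 calls held without Schisandrae low replicate 2, the library of low GC slope, and without any other single library of the comparison.

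High-dose Aucklandiae raised part of the list over its own low dose. GPI, PFKP, ALDOA, PGK1, ENO1 and PKM rose, 6 of the 10 genes, against 7.76% of all tested genes that rose, with a median log2 fold change of 0.171 for the 10 genes and 0 for all tested genes. The largest rises were those of PFKP by 1.48-fold, ALDOA by 1.31-fold and GPI by 1.23-fold. PFKL, the far more abundant liver form of phosphofructokinase, averaged 210 CPM at the high and 195 CPM at the low dose. Its libraries overlapped between these doses, and also between those of Schisandrae (210 and 197 CPM). SLC2A1 and HK2, the entry and trapping steps, had folds of 1.01 and 1.04 that did not pass the test.

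PFKP had 5.01, 4.8 and 4.56 CPM in high-dose Aucklandiae libraries and 3.02, 3.36 and 3.36 CPM in low-dose libraries. ALDOA had 1860, 1827 and 1731 CPM at the high dose and 1454, 1297 and 1374 CPM at the low dose. GPI had 424, 422 and 428 CPM at the high dose and 350, 336 and 350 CPM at the low dose. The groups were apart in all 3 genes. The log2 fold changes were 0.56 ± 0.12 for PFKP, 0.39 ± 0.06 for ALDOA and 0.3 ± 0.04 for GPI (SE, edgeR adjusted p = 0.00063, 1e-06 and 4.7e-08).

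ENO1 had 1944, 1751 and 1770 CPM at the high dose of Aucklandiae and 1434, 1537 and 1575 CPM at the low dose, a log2 fold change of 0.27 ± 0.06 (SE, edgeR adjusted p = 0.00048). PKM had 1068, 1006 and 1010 CPM at the high dose and 942, 883 and 914 CPM at the low dose, a log2 fold change of 0.17 ± 0.04 (SE, edgeR adjusted p = 0.0013). Neither gene had overlapping groups. PGK1 had 323, 270 and 268 CPM at the high dose and 272, 242 and 252 CPM at the low dose of Aucklandiae. Here the groups overlapped, and the log2 fold change of 0.17 ± 0.06 (SE, edgeR adjusted p = 0.032) lost its call without high replicate 1, low replicate 2 or low replicate 3, with a value of 0.0773 without the first of these as log2 fold change. It was also lost with the replicate block within the code set (0.162).

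Values that did not pass in high- against low-dose Aucklandiae were 0.02 for SLC2A1 (95% interval -0.07 to 0.1), 0.05 for HK2 (-0.16 to 0.26), 0.14 for PGAM1 (0.03 to 0.24) and 0.11 for LDHA (-0.02 to 0.23), all as log2 fold changes. SLC2A1 had 729, 728 and 705 CPM at the high dose and 685, 715 and 739 CPM at the low dose. Its libraries overlapped fully, where those of Schisandrae stood far apart.

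**Figure D2:**
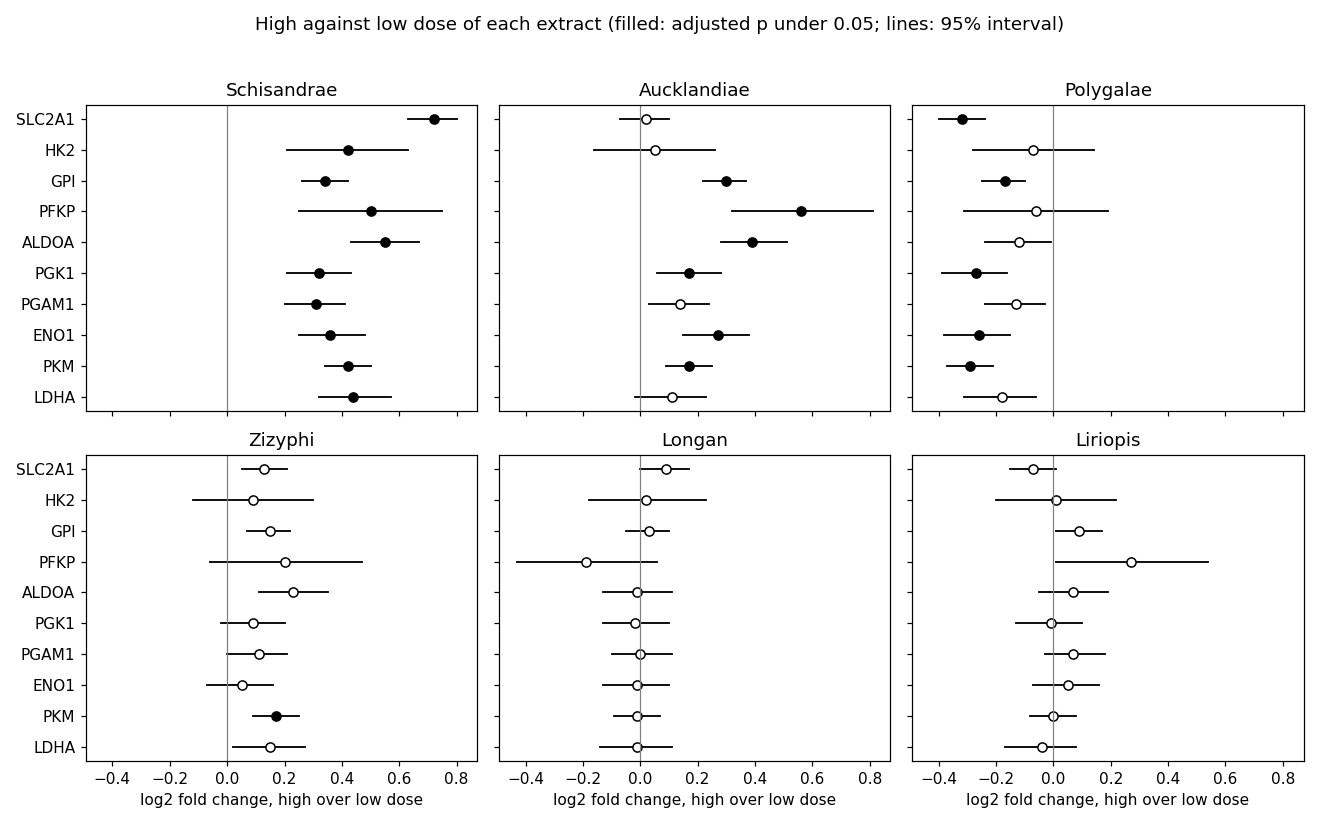
Log2 fold change of high over low dose (horizontal axis) for the 10 genes in each of the 6 extracts. Lines are 95% intervals derived from the edgeR p-values, and filled points mark an adjusted p under 0.05. All 10 points are filled and above 0 for Schisandrae, 6 for Aucklandiae and 1 for Zizyphi, while 5 are filled and below 0 for Polygalae.

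The rises in Schisandrae and Aucklandiae were set against each other by the difference of their high-minus-low effects in the same model. For 3 of the 10 genes the Schisandrae effect was the larger, against 2.25% of all tested genes: SLC2A1 by 0.7 ± 0.06, LDHA by 0.33 ± 0.09 and PKM by 0.25 ± 0.06 on the log2 scale (SE, edgeR adjusted p = 6.9e-13, 0.014 and 0.0023). The LDHA difference lost its call without Schisandrae high replicate 3 (0.284), Aucklandiae low replicate 1 (0.261) or Aucklandiae high replicate 3 (0.282). HK2, which did not pass, did so without Aucklandiae low replicate 1 (0.489). For the genes whose difference did not pass, values lay between -0.06 for PFKP (95% interval -0.41 to 0.29) and 0.37 for HK2 (0.07 to 0.66). These 2 extracts lie in different code sets, and within each of them the set cancels.

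Polygalae ran the other way between its doses. SLC2A1, GPI, PGK1, ENO1 and PKM fell at the high dose relative to the low dose, 5 of the 10 genes, against 2.7% of all tested genes that fell. The median log2 fold change was -0.178 for the 10 genes and 0.000839 for all tested genes. The falls were of 0.8- to 0.887-fold, and the 5 calls held when any single library was left out.

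SLC2A1 had 595, 579 and 594 CPM in high-dose Polygalae libraries, against 724, 741 and 747 CPM in low-dose libraries. PKM had 756, 751 and 753 CPM at the high dose and 945, 908 and 909 CPM at the low dose. PGK1 had 256, 216 and 231 CPM at the high dose and 283, 295 and 272 CPM at the low dose. All high-dose libraries lay below all low-dose libraries in these 3 genes. Log2 fold changes were -0.32 ± 0.04 for SLC2A1, -0.29 ± 0.04 for PKM and -0.27 ± 0.06 for PGK1 (SE, edgeR adjusted p = 1.1e-07, 7.6e-07 and 0.0012).

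ENO1 had 1453, 1310 and 1383 CPM at the high dose of Polygalae and 1618, 1719 and 1636 CPM at the low dose, a log2 fold change of -0.26 ± 0.06 (SE, edgeR adjusted p = 0.0021). GPI had 312, 310 and 310 CPM at the high dose and 358, 342 and 350 CPM at the low dose, a log2 fold change of -0.17 ± 0.04 (SE, edgeR adjusted p = 0.0028). These groups did not overlap either. ALDOA, PGAM1 and LDHA, with log2 fold changes of -0.12, -0.13 and -0.18, did not pass, and neither did HK2 at -0.07 (95% interval -0.28 to 0.14) or PFKP at -0.06 (-0.31 to 0.19). At the medium dose SLC2A1 had 584, 600 and 634 CPM, overlapping the high dose and below the low dose, while PKM at 891, 814 and 861 CPM lay between the 2 other doses.

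Aucklandiae and Polygalae share a code set, and their high-minus-low effects differed in 9 of the 10 genes, against 4.18% of all tested genes for which the Aucklandiae effect was the larger. HK2 was the gene that did not pass (0.12, 95% interval -0.18 to 0.41). The differences on the log2 scale ran from 0.27 ± 0.07 for PGAM1 to 0.62 ± 0.17 for PFKP (SE, edgeR adjusted p = 0.016 for both). SLC2A1 differed by 0.34 ± 0.06, through its fall in Polygalae, and ENO1 by 0.53 ± 0.08, with a rise in Aucklandiae and a fall in Polygalae (SE, edgeR adjusted p = 3.6e-05 and 5.1e-06). Single libraries decided 3 of the 9 calls. LDHA (0.29) lost its call in 8 of the 12 leave-one-out fits (0.232 to 0.299), and kept it without Polygalae low replicate 2, Polygalae high replicate 1, Aucklandiae high replicate 3 or Aucklandiae low replicate 1. PGAM1 lost it without Aucklandiae high replicate 1 (0.244), Aucklandiae low replicate 2 (0.24), Polygalae high replicate 2 (0.25) or Polygalae low replicate 2 (0.227), and PFKP without Aucklandiae low replicate 1 (0.567) or Polygalae low replicate 1 (0.548).

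The other 3 extracts moved little between doses. High- against low-dose Zizyphi raised 1 of the 10 genes, PKM, against 0.212% of all tested genes that rose. PKM had 950, 920 and 1003 CPM at the high dose and 870, 830 and 851 CPM at the low dose of Zizyphi. The groups did not overlap, and the log2 fold change was 0.17 ± 0.04 (SE, edgeR adjusted p = 0.027). In this comparison same-numbered libraries deviated together, and with the replicate block within the code set the number of genes called was 0. The PKM call was also lost without high replicate 1 (0.174), high replicate 3 (0.134), low replicate 1 (0.188), low replicate 2 (0.154) or low replicate 3 (0.167), although the log2 fold change moved little. The remaining 9 log2 fold changes lay between 0.05 for ENO1 and 0.23 for ALDOA, and 6 of the 10 genes were higher at an unadjusted p under 0.05, against 4.15% of all tested genes.

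For high- against low-dose Longan, edgeR called 0 of the 10 genes, against 0.00605% of all tested genes called in either direction. DESeq2 called 0 as well, and 1 gene was higher at an unadjusted p under 0.05, against 1.32% of all tested genes. For DESeq2, here and below, no share over all tested genes was computed, and the shares given are those of edgeR. SLC2A1 had 710, 726 and 745 CPM at the high dose of Longan and 683, 681 and 692 CPM at the low dose, a log2 fold change of 0.09 with a 95% interval of 0 to 0.17. Its groups did not overlap, while those of the other 9 genes did. The median over the 10 genes was -0.01.

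For high- against low-dose Liriopis, edgeR called 0 of the 10 genes, and 0% of all tested genes were called in either direction. DESeq2 called 0 of the 10, and 2 were higher at an unadjusted p under 0.05, against 2% of all tested genes. These were GPI, at a log2 fold change of 0.09 (95% interval 0.01 to 0.17), and PFKP, at 0.27 (0.01 to 0.54), both with every high-dose library above every low-dose library. The median over the 10 genes was 0.0262.

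Schisandrae and Liriopis share a code set and were given at the same doses. Their high-minus-low effects differed in 7 of the 10 genes, against 2.69% of all tested genes for which the Schisandrae effect was the larger. SLC2A1 differed by 0.78 ± 0.06, ALDOA and LDHA by 0.48 ± 0.08 and 0.48 ± 0.09, and PKM by 0.42 ± 0.06 on the log2 scale (SE, edgeR adjusted p = 2.4e-14, 5.5e-05, 0.00016 and 2.8e-07). HK2 (0.41, 95% interval 0.12 to 0.71), PFKP (0.23, -0.14 to 0.6) and PGAM1 (0.23, 0.08 to 0.38) did not pass, and PGAM1 did without Schisandrae low replicate 3 (0.264). Between Zizyphi and Longan, which also share a set and doses, edgeR called a difference in 0 of the 10 genes and in 0% of all tested genes, DESeq2 called 0 of the 10, and for 4 the Zizyphi effect was the larger at an unadjusted p under 0.05, against 2.36% of all tested genes. The values ran from 0.04 for SLC2A1 (95% interval -0.07 to 0.16) to 0.39 for PFKP (0.04 to 0.75).

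Wortmannin split the list when compared with the vehicle. SLC2A1 rose, 1 of the 10 genes, against 16.4% of all tested genes that rose. HK2, ENO1, PKM and LDHA fell, 4 of the 10, against 16.2% of all tested genes that fell. The median log2 fold change was -0.132 for the 10 genes and 0.00803 for all tested genes.

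SLC2A1 had 844, 808 and 816 CPM in wortmannin libraries, against 592, 636 and 651 CPM in vehicle libraries. HK2 had 78.2, 84.5 and 79.9 CPM with wortmannin and 102, 114 and 119 CPM with the vehicle. All wortmannin libraries lay above the vehicle for the transporter and below it for the hexokinase. Their log2 fold changes were 0.39 ± 0.04 for SLC2A1 and -0.47 ± 0.11 for HK2 (SE, edgeR adjusted p = 6.5e-11 and 0.00048).

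PKM had 683, 678 and 682 CPM with wortmannin and 914, 912 and 915 CPM with the vehicle. LDHA had 657, 637 and 639 CPM with wortmannin and 859, 758 and 776 CPM with the vehicle. Neither gene had overlapping groups, and for LDHA the highest vehicle value was that of replicate 1. The log2 fold changes were -0.42 ± 0.04 for PKM and -0.31 ± 0.06 for LDHA (SE, edgeR adjusted p = 4.8e-12 and 0.00011).

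ENO1 had 1144, 1123 and 1095 CPM with wortmannin and 1156, 1278 and 1275 CPM with the vehicle, a log2 fold change of -0.14 ± 0.06 (SE, edgeR adjusted p = 0.049). The groups were apart by a narrow margin, and the call was lost without vehicle replicate 2 (-0.119), vehicle replicate 3 (-0.123) or any 1 of the wortmannin libraries (-0.144 to -0.157), and also with the replicate block over all libraries (-0.141) with a stricter filter on low counts (-0.126) and with no filter (-0.146). PGAM1 at -0.12 (95% interval -0.23 to -0.02) did not pass, but did so without vehicle replicate 1 (-0.168). Log2 fold changes of the other genes that did not pass were 0.04 for GPI, -0.02 for PGK1, -0.08 for ALDOA and -0.18 for PFKP.

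**Figure D3:**
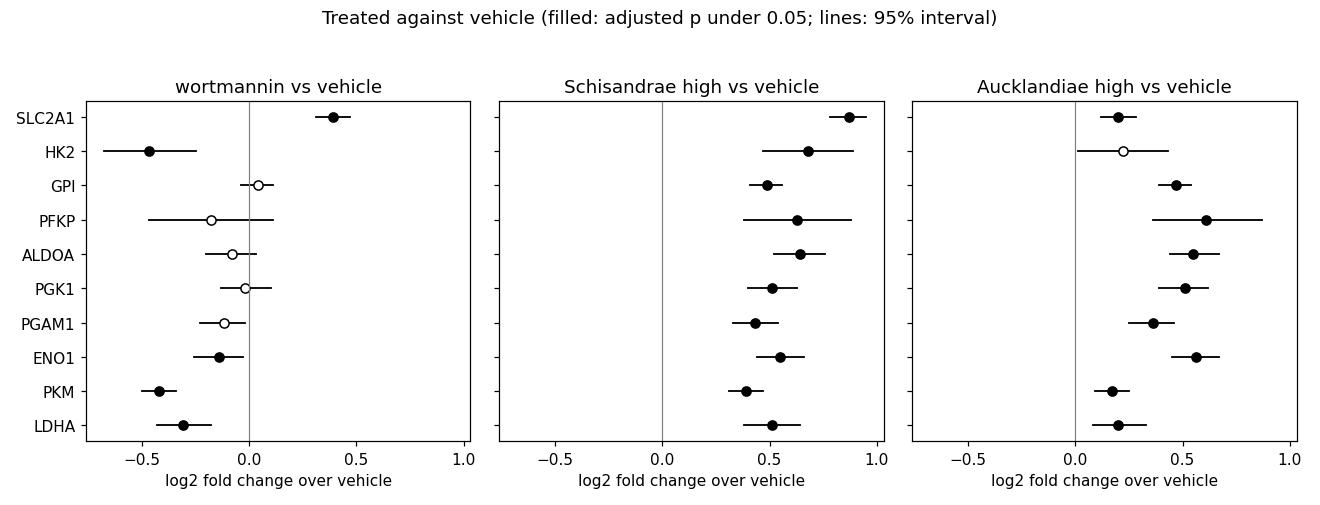
Log2 fold change over the vehicle (horizontal axis) for the 10 genes with wortmannin, high-dose Schisandrae and high-dose Aucklandiae. Lines are 95% intervals derived from the edgeR p-values, and filled points mark an adjusted p under 0.05. With wortmannin 1 filled point lies above 0 and 4 below it, while 10 filled points lie above 0 for Schisandrae and 9 for Aucklandiae. The 3 panels share the same vehicle libraries.

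Against the vehicle, high-dose Schisandrae raised all 10 genes, against 8.39% of all tested genes that rose, and high-dose Aucklandiae raised 9, against 13.6%. Log2 fold changes in high-dose Schisandrae ran from 0.39 ± 0.04 for PKM to 0.87 ± 0.04 for SLC2A1 (SE, edgeR adjusted p = 1.1e-10 and 5.5e-22). In high-dose Aucklandiae those that passed ran from 0.17 ± 0.04 for PKM to 0.61 ± 0.13 for PFKP (SE, edgeR adjusted p = 0.0008 and 0.00017), with ENO1 at 0.56, ALDOA at 0.55 and PGK1 at 0.51, while HK2 at 0.22 (95% interval 0.01 to 0.43) did not. Without vehicle replicate 1 these counts were 10 and 9. LDHA at 0.2 in high-dose Aucklandiae lost its call without vehicle replicate 2 (0.163), vehicle replicate 3 (0.178) or Aucklandiae high replicate 1 (0.144), and its groups overlapped.

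High-dose Zizyphi raised 6 of the 10 genes over the vehicle, against 2.55% of all tested genes that rose. These were PGK1 at a log2 fold change of 0.35, PGAM1 at 0.3, GPI and ALDOA at 0.27, and SLC2A1 and ENO1 at 0.25. The count was 4 without Zizyphi high replicate 3, and ENO1 lost its call without vehicle replicate 1 (0.206). High-dose Longan raised 3, SLC2A1 (0.22), PGK1 (0.22) and GPI (0.15), against 0.938%. That count was 0 without vehicle replicate 1, and 1 without vehicle replicate 2, Longan high replicate 1 or Longan high replicate 3. For high-dose Liriopis edgeR called 0 of the 10, against 0.0484% of all tested genes in either direction, while DESeq2 called 1 and 5 were higher at an unadjusted p under 0.05, against 6.5% of all tested genes.

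High-dose Polygalae raised 4 genes over the vehicle, ALDOA (0.16), PGK1 (0.21), PGAM1 (0.19) and ENO1 (0.16), against 10.2% of all tested genes that rose. It lowered 1, PKM, against 9.92% of all tested genes that fell. Its PKM libraries at 756, 751 and 753 CPM stood far from the vehicle libraries at 914, 912 and 915 CPM. The log2 fold change was -0.28 ± 0.04 (SE, edgeR adjusted p = 6.2e-07). Without vehicle replicate 1 the number called in either direction was 2, PKM and then SLC2A1, which fell at -0.125. It was also 2 without Polygalae high replicate 1, and 3 without Polygalae high replicate 3. GPI at 0.01 and LDHA at -0.07 did not pass.

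At the medium dose, set against the same vehicle libraries, Schisandrae raised 8 of the 10 genes, against 1.79% of all tested genes, and PFKP and PKM did not pass. HK2 lost its call without vehicle replicate 1 (0.405) or Schisandrae medium replicate 2 (0.424), and LDHA without vehicle replicate 2 (0.181) or 3 (0.196) or Schisandrae medium replicate 2 or 3 (0.2 for both). Aucklandiae raised 5, GPI, ALDOA, PGK1, PGAM1 and ENO1, against 3.05%, of which ALDOA lost its call without vehicle replicate 1 (0.212), while without Aucklandiae medium replicate 1 the count was 7. Polygalae raised 4, PFKP, PGK1, PGAM1 and ENO1, against 5.92%. The number called in either direction was 1 without vehicle replicate 1 or Polygalae medium replicate 3, and 2 without vehicle replicate 2. It was 7 without Polygalae medium replicate 1, where PKM was called as lower (-0.125). Zizyphi raised 2, GPI and PGAM1, against 0.418%, and that count was 0 without vehicle replicate 1 or Zizyphi medium replicate 2 or 3, and 1 without vehicle replicate 2. For medium-dose Longan edgeR called 0, against 0.0666% in either direction, with 0 by DESeq2 and 5 higher at an unadjusted p under 0.05, against 5.73% of all tested genes at that level. For medium-dose Liriopis it called 0, against 0.0303%, with 1 by DESeq2 and 7 higher at an unadjusted p under 0.05, against 6.6% of all tested genes at that level.

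Low-dose Polygalae raised 8 of the 10 genes over the vehicle, against 8.64% of all tested genes, with PGK1 at a log2 fold change of 0.49 and ENO1 at 0.42. PKM at 0.01 and LDHA at 0.11 did not pass. The count was 6 or 7 whenever a single library was left out. HK2 lost its call without vehicle replicate 1 (0.251) or 2 (0.327) or Polygalae low replicate 2 (0.327) or 3 (0.273). PFKP lost its call without any 1 of the vehicle libraries or Polygalae low replicate 1 or 2 (0.297 to 0.393), and with DESeq2 (0.367). Low-dose Aucklandiae raised 5, SLC2A1, GPI, PGK1, PGAM1 and ENO1, against 2.19%, and 2 without vehicle replicate 1. Low-dose Zizyphi raised 3, PGK1, PGAM1 and ENO1, against 1.14%, and low-dose Longan 1, PGK1, against 0.375%, and both counts were 0 without vehicle replicate 1. The Zizyphi count was also 0 without Zizyphi low replicate 1 and 1 without vehicle replicate 2, and the Longan count was 0 without vehicle replicate 2 or any 1 of the Longan low libraries. For low-dose Schisandrae edgeR called 0, against 0.0727% of all tested genes in either direction, with 2 by DESeq2 and 6 higher at an unadjusted p under 0.05, against 5.39% of all tested genes at that level. For low-dose Liriopis it called 0, against 0.0303%, with 0 by DESeq2 and 4 higher at an unadjusted p under 0.05, against 5.12% of all tested genes at that level.

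The vehicle itself stood low in several of these genes, and this touches every comparison above that uses it. The means of all 18 extract groups exceeded the vehicle mean for HK2, GPI, ALDOA, PGK1, PGAM1 and ENO1. Those of 16 groups did so for SLC2A1, 15 for PFKP, 13 for LDHA and 6 for PKM. The share of all tested genes with such counts was not computed, so the low vehicle level may not be particular to these genes. PGK1 averaged 223 to 289 CPM in the extract groups and 202 ± 13.8 CPM in the vehicle (SD, n = 3). PKM had 753 to 1196 CPM in the extract groups and 914 ± 1.73 CPM in the vehicle (SD, n = 3). The vehicle is the only group of its code set, so code set and treatment cannot be told apart in its level. Its replicate 1 had the lowest vehicle value for SLC2A1, HK2, GPI, ALDOA, PGK1, PGAM1 and ENO1, and the highest for LDHA.

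The 10 genes' profiles over the 20 group means were compared in pairs. Pearson's r between pairs of genes, over log2 group means, had a median of 0.79 over 45 pairs, from 0.29 for SLC2A1 with HK2 to 0.95 for PGK1 with ENO1. The 6 lowest values were those of SLC2A1 with HK2, PFKP, PGAM1, ENO1, PGK1 and PKM (0.29 to 0.54), followed by HK2 with GPI (0.58) and PFKP with PKM and LDHA (0.6 for both). These points share their libraries and depth, and r is given as a description. Each gene was also set against the mean profile of the 10 genes, of which it is itself a part, which raises its r. Against that profile r was 0.96 for ALDOA, 0.95 for ENO1, 0.94 for LDHA and 0.92 for PGAM1. It was 0.91 for PGK1 and GPI, 0.89 for PKM, 0.82 for HK2 and 0.62 for SLC2A1. PFKP lay below the minimum of 5 CPM for this measure. SLC2A1 differed in its high level with wortmannin (823 CPM). Its lowest means were in medium- and high-dose Polygalae (606 and 590 CPM). High-dose Polygalae was also low for GPI, PKM and LDHA (310, 753 and 760 CPM).

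**Figure D4:**
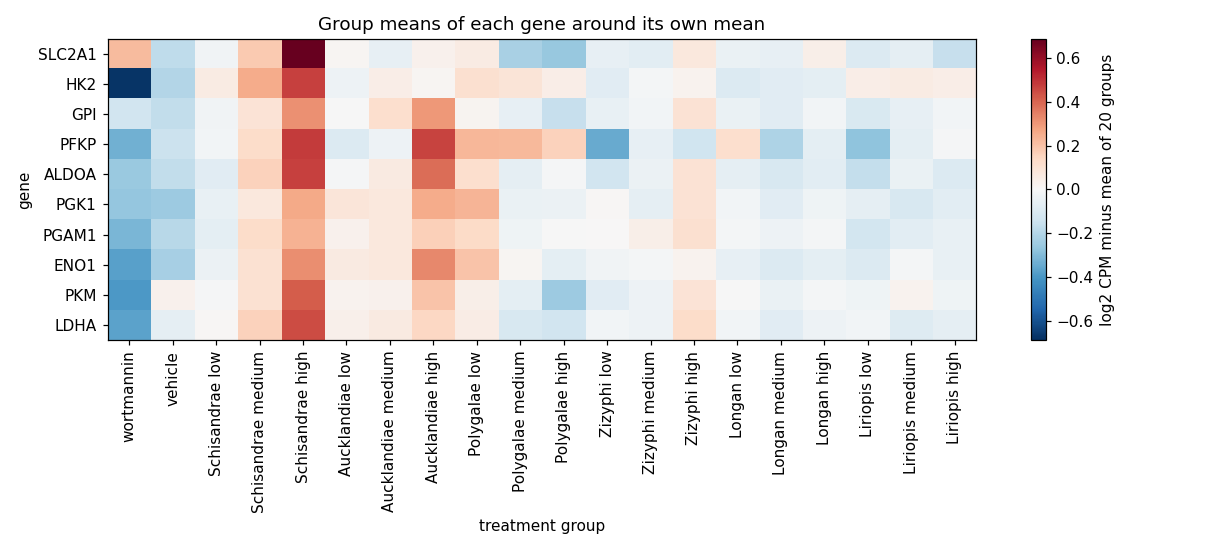
Group means of each of the 10 genes (rows) in the 20 groups (columns), as log2 CPM minus the gene's mean over the groups, in a colour scale from blue (below) to red (above). High-dose Schisandrae reaches 0.69 for SLC2A1, and wortmannin reaches -0.67 for HK2 while SLC2A1 in that column is above its mean.

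Among 10618 genes with a mean of at least 5 CPM, those outside the list whose group means followed the mean profile of the 10 most closely included TRAPPC12 (r = 0.946), TMEM43 (0.943), PDK1 (0.915), NCBP2 (0.913), APOL1 (0.909), CCR6 (0.906) and APOL2 (0.906), over 20 group means. Their ranges differed: CCR6 spanned 1.26 on the log2 scale and TMEM43 0.37.

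GAPDH and TPI1 are the trunk enzymes that the list leaves out. GAPDH, which oxidises glyceraldehyde 3-phosphate, averaged 2800 CPM in high-dose Schisandrae and 2380 CPM in low-dose Schisandrae, a log2 fold change of 0.23 ± 0.09 (SE, edgeR adjusted p = 0.09). It did not pass in any of the 25 comparisons, and its libraries had a median coefficient of variation of 6.82% within groups. TPI1, triose phosphate isomerase, rose by 0.26 ± 0.06 in high- against low-dose Schisandrae (473 against 393 CPM) and fell by 0.28 ± 0.06 with wortmannin (322 CPM, against 390 CPM in the vehicle; SE, edgeR adjusted p = 0.002 and 0.00035).

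Further glycolytic isoenzymes moved in both directions. Of 13 tested, 5 rose and 2 fell in high- against low-dose Schisandrae, against 5.18% of all tested genes that rose and 4.8% that fell (median log2 fold change 0.14, against -0.00546 for all tested genes). HKDC1, a hexokinase-like enzyme, rose by 0.56 and ENO2, the neuronal enolase, by 0.34, while ENO3, the muscle enolase, fell by 0.46 and PKLR, the liver pyruvate kinase, fell by 0.3 on the log2 scale (edgeR adjusted p = 6.2e-06, 1.1e-05, 5.1e-06 and 0.00077). PKLR and PKM thus moved apart, as they did with wortmannin, where PKLR averaged 30.2 CPM, against 20.3 CPM in the vehicle (log2 fold change 0.57, edgeR adjusted p = 6.8e-10). In high- against low-dose Aucklandiae, where 7.76% of all tested genes rose and 7.14% fell, 2 of the 13 rose, HKDC1 (0.52) and ALDOC, the brain aldolase (0.39), and 1 fell, ENO3 (-0.2, edgeR adjusted p = 0.05 after rounding).

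Of 9 other glucose transporters tested, 2 rose and 1 fell in high- against low-dose Schisandrae, against 5.18% and 4.8% of all tested genes. SLC2A3, the high-affinity transporter GLUT3, averaged 314 CPM at the high dose, against 242 CPM at the low dose (log2 fold change 0.38, edgeR adjusted p = 1.9e-05), and SLC2A4, the insulin-responsive GLUT4, was at -0.52 (edgeR adjusted p = 0.00043). With wortmannin 5 rose and 2 fell, against 16.4% and 16.2% of all tested genes: SLC2A2, the GLUT2 of liver, had 48.6 CPM, against 27.6 CPM in the vehicle, while SLC2A3 had 171 CPM, against 215 CPM. GLUT1 and GLUT3 transcripts both rose with Schisandrae, and with wortmannin the first rose and the second fell.

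PFKFB3, which makes the phosphofructokinase activator fructose 2,6-bisphosphate, was the gene of its 5-member group that rose in high- against low-dose Schisandrae (8.21 against 5.53 CPM, log2 fold change 0.57, edgeR adjusted p = 0.026) and Aucklandiae (9.2 against 5.54 CPM, 0.74, 0.0013). Of all tested genes, 5.18% rose in Schisandrae and 7.76% in Aucklandiae. PDK1, a kinase that closes the entry of pyruvate to the mitochondrion, had 45.6 CPM at the high dose and 29.8 CPM at the low dose of Schisandrae, a log2 fold change of 0.61 (edgeR adjusted p = 9.1e-08). PDK1 was the 1 of 15 tested genes of lactate transport and pyruvate entry that rose, against 5.18% of all tested genes. PDK2 at -0.26 was the 1 that fell, against 4.8%. The lactate exporter SLC16A3 averaged 466 CPM at the high dose of Schisandrae and 385 CPM at the low dose, a log2 fold change of 0.28 that did not pass.

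Among hypoxia targets outside glycolysis in Schisandrae, 10 of 12 tested rose at the high relative to the low dose, against 5.18% of all tested genes, with a median log2 fold change of 0.362. ERO1A, an oxidase of the endoplasmic reticulum, was at 0.33, P4HA1, a collagen prolyl hydroxylase, at 0.3, NDRG1 at 0.49 and BNIP3, a mitophagy receptor, at 0.35 (edgeR adjusted p = 4.3e-05, 0.00011, 0.00043 and 0.00051). In Aucklandiae 4 of the 12 rose, against 7.76% of all tested genes, NDRG1 at 0.87, BNIP3 at 0.38, P4HA2 at 0.26 and KDM3A, a histone demethylase, at 0.21. In Polygalae 1 rose, DDIT4 at 0.5, against 1.23% of all tested genes, and 2 fell, P4HA1 at -0.2 and P4HA2 at -0.26, against 2.7%. HIF1A, a subunit of the hypoxia-inducible factor regulated mainly through protein stability, averaged 221 CPM at the high and 225 CPM at the low dose of Schisandrae, while with wortmannin it had 175 CPM, against 245 CPM in the vehicle (log2 fold change -0.49, edgeR adjusted p = 8.6e-08).

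TXNIP moved in opposite directions in Schisandrae and Aucklandiae. TXNIP, an inhibitor of glucose uptake that is induced by glucose, had 54.1 CPM at the high dose and 41 CPM at the low dose of Schisandrae (log2 fold change 0.4, edgeR adjusted p = 0.0014) and 27.6 CPM at the high dose and 41.6 CPM at the low dose of Aucklandiae (-0.59, 2.6e-06). The 2 effects differed by 0.99 ± 0.13 on the log2 scale (SE, edgeR adjusted p = 2.3e-07). EPAS1, the HIF-2α subunit, rose by 0.51 in Aucklandiae (319 against 225 CPM, edgeR adjusted p = 1e-12).

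MYC had 231 CPM at the high and 198 CPM at the low dose of Aucklandiae (log2 fold change 0.22, edgeR adjusted p = 0.029), and with wortmannin 164 CPM, against 209 CPM in the vehicle (-0.35, 0.00014). Its highest group mean was in high-dose Polygalae, at 237 CPM, against 202 CPM at the low dose. Between these 2 doses 5 of the 10 genes fell, and a link to MYC was not tested. In Schisandrae MYC averaged 229 CPM at the high and 205 CPM at the low dose. Gluconeogenic genes rose with wortmannin, 5 of 7 tested, against 16.4% of all tested genes, with a median log2 fold change of 0.526. G6PC1, which releases free glucose, had 16.2 CPM with wortmannin and 1.66 CPM with the vehicle, and PC, pyruvate carboxylase, had 106 and 70.2 CPM. In high- against low-dose Schisandrae 1 of the 7 rose, G6PC1, at 3.76 against 2.23 CPM. Of 8 glycogen genes tested, 1 rose (GBE1, 0.28) and 1 fell (PYGL, -0.17) in that comparison. Among all tested genes there, 5.18% rose and 4.8% fell.

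Hepatocyte markers moved beside these changes. Of 10, 2 fell in high- against low-dose Schisandrae (median log2 fold change -0.111), 5 fell in Aucklandiae (-0.232), and 4 fell and 1 rose in Polygalae (-0.265). Of all tested genes, 4.8% fell in Schisandrae, 7.14% in Aucklandiae and 2.7% in Polygalae, where 1.23% rose. With wortmannin 5 of the 10 rose and 1 fell (0.146), against 16.4% and 16.2% of all tested genes. Against the vehicle, the median log2 fold change of the 10 markers was -0.304 in high-dose Aucklandiae, -0.101 in high-dose Schisandrae and -0.237 in high-dose Polygalae. In high-dose Polygalae 5 of these markers fell, against 9.92% of all tested genes. Their part in the results was not tested.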

How the data were processed

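The authors deposited expected counts per gene (RSEM estimates, partly fractional) for 60 libraries. Per the submitters' processing notes, FastQC 0.11.9, Trim Galore 0.6.5, STAR 2.7.3a, RSEM 1.3.3 and hg38/GRCh38 were used. Per the labels' protocols, libraries came from a stranded mRNA kit with paired reads of 100 bases. For the annotation release and the strand setting of the counting, a statement is not given in the sources used here.

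Expected counts were rounded and fitted with edgeR 4.0.16 in R 4.3.3 (limma 3.58.1) as 1 quasi-likelihood model with 20 group terms and TMM scaling (factors 0.92 to 1.08). Genes were filtered by expression in the smallest group, which left 16517 genes with all but 0.0533% of the counts. Tests were 2-sided, with Benjamini-Hochberg adjustment over these genes and a threshold of 0.05. The 25 comparisons were high against low dose and each dose or wortmannin against the vehicle, beside 4 differences of high-minus-low effects. CPM values are TMM-scaled, except the sums of cell type markers, which were scaled to total counts alone. Median log2 fold changes over all tested genes lay within 0.00954 of 0. Total counts of 20.21 to 36.41 M (median 25.76 M) set the precision. On data simulated for high- against low-dose Schisandrae (16274 genes, 50 changed at each size), 64% of 1.25-fold, 92% of 1.5-fold and 100% of 2-fold changes were called, with 10 false calls. In the simulation libraries varied independently, and the spread of a gene followed its level alone. Changed genes were drawn from all levels above a low minimum, so these rates are not those of the 10 genes.

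Where replicates came from is not stated, so p-values measure the spread between these libraries, which may be technical. No libraries had identical counts (0 pairs). Same-numbered libraries deviated together (r over 0.1 in all 3 pairs) in high- against low-dose Schisandrae (0.31, 0.16 and 0.29) and Zizyphi (0.33, 0.57 and 0.16) and in low-dose Liriopis against the vehicle (0.5, 0.3 and 0.23), as read from the data. The alternatives were DESeq2 1.42.0, RLE scaling, other filters, fewer libraries, a replicate block, a GC covariate and summed shared reads.

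Members and gene lists were chosen with earlier results of these data known. From each list, at most the 4 genes of smallest p in a comparison were named, beside TPI1, GAPDH, TXNIP, HIF1A, MYC and G6PC1, and the 8 genes outside the list most alike over group means. Some genes that this rule names are not reported here.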

Additional observations from a re-analysis of the deposited data

Results flagged for a closer look

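High-minus-low effects were tested for differences between pairs of extracts, and those past the threshold are listed here (edgeR quasi-likelihood test, adjusted p under 0.05, log2 scale). The Schisandrae effect exceeded that of Liriopis by 0.78 for SLC2A1, 0.48 for ALDOA, 0.48 for LDHA, 0.42 for PKM, 0.33 for PGK1, 0.32 for ENO1 and 0.25 for GPI. Of these 7, GPI is the one with a Liriopis effect (0.09) that reached an unadjusted p under 0.05.

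The Aucklandiae effect exceeded that of Polygalae by 0.62 for PFKP, 0.53 for ENO1, 0.52 for ALDOA, 0.47 for GPI, 0.46 for PKM, 0.44 for PGK1, 0.34 for SLC2A1, 0.29 for LDHA and 0.27 for PGAM1. GPI, PGK1, ENO1 and PKM rose in Aucklandiae and fell in Polygalae. SLC2A1 fell in Polygalae and did not pass in Aucklandiae, while PFKP and ALDOA rose in Aucklandiae and did not pass in Polygalae. LDHA and PGAM1 passed in neither extract alone.

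The Schisandrae effect exceeded that of Aucklandiae by 0.7 for SLC2A1, 0.33 for LDHA and 0.25 for PKM. These extracts do not share a code set.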

How the results depend on the processing

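Of 4659 values of single genes compared across alternatives, 0 reversed. The counts of 10 in high- against low-dose Schisandrae and 5 in Polygalae held under every alternative to within 1.5 times, and so did those for wortmannin. The fragile counts were small ones and those against the vehicle. All counts in this paragraph are of calls in either direction. For high- against low-dose Zizyphi (1 called) the count was 0 with no filter, with the 6 libraries alone, with the replicate block within the code set and with the code set alone (added after seeing the data), 2 with the GC slope as covariate or the 4 libraries of low GC slope left out, and 3 with DESeq2. With those 4 libraries left out, high-dose Polygalae called 2, high-dose Longan 1, medium-dose Aucklandiae 2, medium-dose Polygalae 1, low-dose Aucklandiae 2, and medium- and low-dose Zizyphi and low-dose Longan 0 against the vehicle. With the 6 libraries alone, high-dose Longan, medium-dose Aucklandiae, Polygalae and Zizyphi, and low-dose Aucklandiae, Zizyphi and Longan called 0. With no filter, the count was 1 for all 3 doses of Liriopis, for medium-dose Zizyphi and for low-dose Schisandrae, and 3 for low-dose Aucklandiae. With the GC covariate it was 1 for high-dose Liriopis, 7 for medium-dose Polygalae, 2 for low-dose Schisandrae and 6 for low-dose Zizyphi. DESeq2 called 1 for high- and medium-dose Liriopis, 4 for medium-dose Zizyphi, 2 for low-dose Schisandrae, 5 for low-dose Zizyphi and 4 for low-dose Longan. Leaving out single libraries gave 0 to 2 in high- against low-dose Zizyphi, and against the vehicle 2 to 5 for high-dose Polygalae, 0 to 3 for high-dose Longan, 1 to 7 for medium-dose Polygalae, 0 to 2 for medium-dose Zizyphi, 2 to 5 for low-dose Aucklandiae, 0 to 2 for low-dose Zizyphi and 0 to 1 for low-dose Longan. In each of these vehicle comparisons the low end was reached without vehicle replicate 1, and in some also without other libraries. The causes were not tested. The replicate block over all libraries changed 5 of 290 calls of single genes (4 gained, and 1 lost, ENO1 with wortmannin at -0.141). Within the code set the block ended 2 calls, PGK1 in high- against low-dose Aucklandiae (0.162) and PKM in Zizyphi (0.168), and left the 10 Schisandrae calls in place. Summing shared reads changed 0 calls.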
